A study of Mus musculus with 16 samples.

Results

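The genes described here are 10 sensors and adaptors of innate immunity: Ddx58, Ifih1, Dhx58, Eif2ak2, Tlr3, Mavs, Zbp1, Adar, Tlr2 and Myd88. They were taken by symbol from the platform annotation of the array, and all 10 were found, each with 1 transcript cluster, among 19938 genes with a cluster that names a single gene. Their expression was measured in 2 tissues of the eye, the neurosensory retina (NSR) with its photoreceptors, neurons and Müller glia, and the pigment epithelium (RPE), dissected apart, which supports the photoreceptors from behind. The animals were 8 male mice of the albino strain Balb/cJ, aged 10 weeks. The light-exposed group of 4 mice received cool white fluorescent light of 10000 lux for 18 hours and was killed 4 hours after the light went off. The control group of 4 mice stayed on a 12-hour cycle of light and dark, so that bright light and the change of schedule cannot be told apart. Each tissue of each mouse had its own array, which gave 16 arrays in 4 groups of 4, light-exposed NSR, control NSR, light-exposed RPE and control RPE.

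Cells recognise viral or misplaced nucleic acids through a small set of receptors. RIG-I (gene Ddx58) and MDA5 (Ifih1) are cytosolic helicases that bind double-stranded or unusual RNA and signal through the mitochondrial adaptor MAVS, and LGP2 (Dhx58) is a related helicase without the signalling domain. PKR (Eif2ak2) is a kinase that halts translation on binding double-stranded RNA, ADAR edits such RNA, and ZBP1 binds nucleic acids in the left-handed Z form and can start necroptosis. TLR3 senses double-stranded RNA in endosomes. TLR2 is a receptor for bacterial lipopeptides, not for nucleic acids, and is grouped here through MyD88, the adaptor it shares with most other Toll-like receptors. Many of these genes are themselves induced by interferon, and TLR2 is known as a target of NF-kB.

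Promoter sequence is shown for 4 of the genes that rose in the NSR and for Mavs, which did not, because the motifs that interferon regulatory factors bind lie close to the start of several of them. RefSeq promoters of the GRCm38.p6 build, 250 bases before to 50 after the start, were matched for 8 of the 10 genes. The motif searched for interferon regulatory factors was GAAANNGAA on either strand, the GAS motif of STAT factors was TTCNNNGAA, which reads the same on both strands, and the NF-kB motif was GGNNTTTCC on either strand. Matches can overlap each other. The windows run 5′ to 3′ on the strand of the gene from 90 bases before to 30 bases after the start, that of Ifih1 from base 21 to base 50 after the start, and capitals mark motif matches. Ddx58 lies at chr4:40239796-40239915 on the minus strand, Eif2ak2 at chr17:78882543-78882662 on the minus strand, Myd88 at chr9:119339989-119340108 on the minus strand, Ifih1 at chr2:62646206-62646235 on the minus strand and Mavs at chr2:131233973-131234092 on the plus strand.
Ddx58: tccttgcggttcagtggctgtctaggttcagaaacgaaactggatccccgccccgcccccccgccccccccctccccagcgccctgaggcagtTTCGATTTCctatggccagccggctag
Eif2ak2: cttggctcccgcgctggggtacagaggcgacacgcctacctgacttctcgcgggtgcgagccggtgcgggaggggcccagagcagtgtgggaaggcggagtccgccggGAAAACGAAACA
Myd88: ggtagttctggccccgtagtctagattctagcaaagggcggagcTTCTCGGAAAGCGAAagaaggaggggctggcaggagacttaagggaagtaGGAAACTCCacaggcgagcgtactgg
Ifih1: gagaagagaatcGAAACAGAAaccgatctg
Mavs: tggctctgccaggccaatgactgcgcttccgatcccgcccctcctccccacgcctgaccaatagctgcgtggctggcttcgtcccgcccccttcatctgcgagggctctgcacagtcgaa
The interferon regulatory factor motif was found in the promoters of 5 of the 8 genes, Adar, Ddx58, Eif2ak2, Ifih1 and Myd88, and in those of 9.76% of all 27025 genes of the table. For Adar it lay in 1 of its 3 promoters, with a match 34 to 42 bases after that start and another from base -249 to base -241. In Ddx58 it lay 4 to 12 bases after the start, in Eif2ak2 19 to 27 bases after it with another match overlapping it, and in Ifih1 33 to 41 bases after it, with another match from base -112 to base -104. In Myd88 the match from base -40 to base -32 overlapped a GAS match from base -46 to base -38. The GAS motif was found in 3 of the 8 genes, against 9.55% of all, and the NF-kB motif in 2, Myd88 and Tlr3, against 6.62% of all. The Mavs and Tlr2 promoters held none of the 3 motifs from 250 bases before to 50 after the start. The 4 risen genes printed above all hold an interferon regulatory factor match. Tlr2 and Tlr3, not printed, also rose in the NSR and had no such match. A match of letters is a description and not a measured binding site.

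The arrays were alike in overall level within each tissue, with medians over all 35556 transcript clusters of 6.52 to 6.55 in light-exposed NSR, 6.55 to 6.57 in control NSR, 6.38 to 6.43 in light-exposed RPE and 6.41 to 6.42 in control RPE, on the log2 scale of the deposited values. The medians of all RPE arrays lay below those of all NSR arrays. The dissected tissues carried their own markers. The median of 15 RPE markers was 11.22 to 11.53 on light-exposed RPE arrays and 12.19 to 12.34 on control RPE arrays, against 6.02 to 6.17 in light-exposed NSR and 6.19 to 6.57 in control NSR. Rod markers reached 7.87 to 8.58 in light-exposed RPE and 7.99 to 8.46 in control RPE, against 11.06 to 11.35 in the NSR of light-exposed mice and 12.10 to 12.17 in that of control mice. A few RPE arrays carried markers of neighbouring tissue. Corneal and ciliary markers had a median of 8.79 on light-exposed RPE array 2, against 5.68 to 5.89 on the other 3, and lens markers had 7.07 on control RPE array 2, against 6.18 to 6.26 on the other 3. The highest rod marker value among RPE arrays, 8.58, was that of light-exposed RPE array 1. Control RPE arrays 1 and 2 stood close to it, at 8.45 and 8.46. Comparisons that involve the RPE are also given without light-exposed RPE arrays 1 and 2 and control RPE array 2. Control RPE array 1 was kept, so that leaving out these 3 arrays does not free the rest of rod signal.

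In the NSR, 8 of the 10 genes rose under light and none fell, with the largest rises in the RNA sensors Ddx58, Eif2ak2 and Ifih1, of 7.71-fold, 7.37-fold and 4.69-fold. A gene was called at a limma adjusted p under 0.05 (Benjamini-Hochberg, 19938 genes), and 8.87% of all genes were called higher and 6.24% lower, 15.1% together. Of the 10 genes, 5 rose at least 2-fold, against 1.14% of all genes. The median log2 change of the 10 genes was 1.10, against -0.02 over all genes. The 8 called genes were also those whose 4 light-exposed arrays all lay above the 4 control arrays, which held for 10.7% of all genes. The plot of single arrays shows the 10 genes side by side in the 4 groups.

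**Figure D1:**
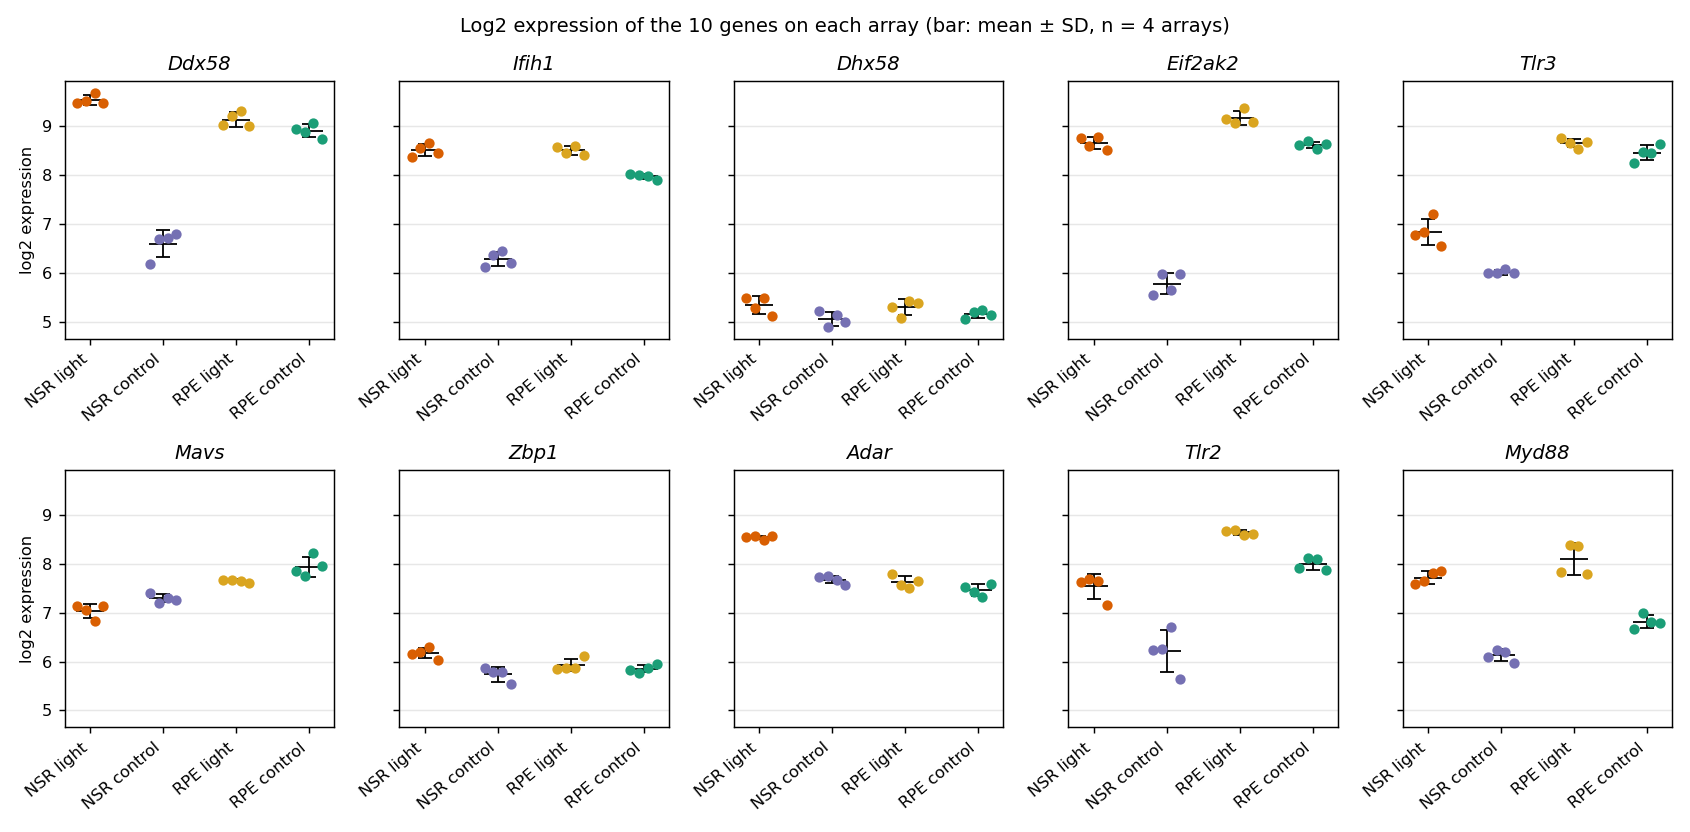
Log2 expression (vertical axis) of each of the 10 genes on the 16 arrays, 1 panel per gene, with NSR light, NSR control, RPE light and RPE control from left to right; points are single arrays, and bars give the mean ± SD of 4 arrays. For Ddx58, Ifih1 and Eif2ak2 the control NSR points lie far below the other 3 groups, which lie close together, while Dhx58 stays near 5 in all groups; levels of different genes are not comparable, since each has its own probes.

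Ddx58, which encodes the RNA helicase RIG-I, stood at 9.47, 9.53, 9.69 and 9.48 in light-exposed NSR, against 6.19, 6.70, 6.71 and 6.79 in control NSR. The groups were far apart, and the gap between them was larger than the whole range within either. The log2 change was 2.95 (SE 0.12, 95% interval 2.69 to 3.21, n = 4 per group, limma adjusted p = 1.62e-08). Ifih1, the MDA5 gene, had 8.38, 8.56, 8.67 and 8.45 in light-exposed NSR and 6.13, 6.36, 6.44 and 6.21 in control NSR. All light-exposed values again lay above all control values, with a log2 change of 2.23 (SE 0.09, limma adjusted p = 1.42e-08). Dhx58, the gene of LGP2, had 5.49, 5.29, 5.49 and 5.11 in light-exposed NSR and 5.21, 4.89, 5.14 and 4.99 in control NSR, and the groups overlapped. Its log2 difference of 0.29 (95% interval 0.07 to 0.50) was not called (limma adjusted p = 0.0776). It was called without light-exposed NSR array 4 (0.36, limma adjusted p = 0.0241), with the arrays centred on their medians (adjusted p = 0.0489) or quantile-normalized (adjusted p = 0.0395). Its mean was below 5.63, the level under which the dimmest 25% of genes lie, in all 4 groups, and how far it stood above background is unknown.

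Eif2ak2, the PKR gene, had 8.76, 8.59, 8.79 and 8.51 in light-exposed NSR, against 5.55, 5.98, 5.64 and 5.97 in control NSR. Its log2 change of 2.88 (SE 0.11, limma adjusted p = 9.66e-09) was far larger than the ranges of 0.28 within the light-exposed and 0.43 within the control group. Adar, which encodes the enzyme that converts adenosine to inosine in double-stranded RNA, rose 1.83-fold, less than Ddx58, Eif2ak2 and Ifih1, with little spread. It had 8.56, 8.58, 8.50 and 8.57 in light-exposed NSR and 7.73, 7.75, 7.67 and 7.57 in control NSR (log2 change 0.88, SE 0.06, limma adjusted p = 2.01e-06). Zbp1 rose 1.35-fold, with 6.15, 6.20, 6.29 and 6.04 in light-exposed NSR and 5.86, 5.78, 5.79 and 5.53 in control NSR (log2 change 0.43, SE 0.08, limma adjusted p = 0.00433). Its groups lay close together without overlapping.

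Among the Toll-like receptor genes of the NSR, Tlr3 rose 1.78-fold and Tlr2 2.50-fold, and the adaptor gene Myd88 3.02-fold. Tlr3 had 6.77, 6.84, 7.21 and 6.55 in light-exposed NSR, against 5.99, 6.00, 6.08 and 5.99 in control NSR (log2 change 0.83, SE 0.11, limma adjusted p = 0.000327). The light-exposed mice differed among themselves, with changes against the control mean from 0.54 to 1.19. Tlr2 had 7.64, 7.70, 7.65 and 7.16 in light-exposed NSR and 6.24, 6.26, 6.70 and 5.65 in control NSR (log2 change 1.32, SE 0.19, limma adjusted p = 0.000446). This was the widest spread of the 10 genes, with a range of 1.05 in control NSR. Myd88 had 7.58, 7.65, 7.81 and 7.85 in light-exposed NSR and 6.09, 6.24, 6.19 and 5.97 in control NSR (log2 change 1.60, SE 0.08, limma adjusted p = 1.41e-07).

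Mavs, the adaptor through which RIG-I and MDA5 signal, did not rise. It had 7.13, 7.06, 6.84 and 7.14 in light-exposed NSR and 7.40, 7.19, 7.31 and 7.27 in control NSR, and all light-exposed values lay below all control values, as they did for 9.97% of all genes. The log2 difference of -0.25 (95% interval -0.43 to -0.08) was not called (limma adjusted p = 0.0573), and it was called with the dimmest 25% of genes left out (adjusted p = 0.0431) or after quantile normalization (adjusted p = 0.0493). Of the 10 genes, 5 were highest on light-exposed NSR array 3 within their group and 5 lowest on light-exposed NSR array 4.

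Markers of other cells moved in the NSR as well. Among 18 genes that mark microglia and macrophages, cells that express many Toll-like receptors, 6 rose and none fell, and the list median lay between 5.96 and 6.33 in light-exposed NSR, against 5.97 to 6.00 in control NSR. The lowest of these values, 5.96, was that of light-exposed NSR array 4 and the highest, 6.33, that of array 3. Within control NSR, array 4 was lowest for 5 of the 10 genes, and its list median of 6.00 lay at the top of the range there. Of 13 rod markers 12 fell, with the list medians given above. Of 12 Müller glia markers 3 rose and 6 fell, and in a list of 13 genes of neutrophils and monocytes, 0 were higher and 1 was lower. The deposited scale has no zero, so that an absent marker cannot be told from a dim one. Fewer cells of a type and less RNA per cell cannot be told apart in these samples, and the part of cell composition in the changes of the 10 genes was not tested.

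In the RPE, 4 of the 10 genes rose under light, Myd88, Tlr2, Eif2ak2 and Ifih1, and none fell, against 9.08% of all genes called higher and 8.53% lower, 17.6% together. Median changes on the log2 scale were 0.22 for the 10 genes and -0.01 for all genes. Of the 10 genes, Myd88 was the 1 that rose at least 2-fold, as 0.762% of all genes did: it was 2.43-fold higher, with 7.84, 8.39, 8.36 and 7.80 in light-exposed RPE, against 6.66, 7.00, 6.81 and 6.80 in control RPE (log2 change 1.28, SE 0.15, limma adjusted p = 0.00026). All light-exposed values lay above all control values, and within the light-exposed group arrays 2 and 3 lay above arrays 1 and 4. Tlr2 rose 1.56-fold, with 8.68, 8.69, 8.60 and 8.62 in light-exposed RPE and 7.91, 8.12, 8.11 and 7.88 in control RPE (log2 change 0.64, SE 0.07, limma adjusted p = 0.00028). The 4 light-exposed mice differed by only 0.10 at this gene.

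Eif2ak2 rose 1.46-fold in the RPE, with 9.15, 9.06, 9.37 and 9.09 in light-exposed mice and 8.61, 8.71, 8.53 and 8.63 in control mice (log2 change 0.55, SE 0.08, limma adjusted p = 0.00112). Ifih1 rose 1.44-fold, with 8.58, 8.45, 8.59 and 8.41 in light-exposed RPE and 8.03, 8.01, 7.98 and 7.91 in control RPE (log2 change 0.53, SE 0.07, limma adjusted p = 0.000442). For all 4 called genes the light-exposed arrays lay above the control arrays, which held for 11.3% of all genes. Without light-exposed RPE arrays 1 and 2 and control RPE array 2, the log2 changes were 1.32 for Myd88, 0.64 for Tlr2, 0.64 for Eif2ak2 and 0.53 for Ifih1, and all 4 were called (limma adjusted p between 0.0052 and 0.0169).

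The other 6 genes were not called in the RPE. Ddx58, which had the largest change in the NSR, had 9.02, 9.22, 9.32 and 9.01 in light-exposed RPE, against 8.94, 8.89, 9.07 and 8.74 in control RPE, and the groups overlapped. Its log2 difference was 0.23 (95% interval 0.02 to 0.44, limma adjusted p = 0.139). The intervals of the log2 differences were 0.02 to 0.40 for Tlr3, -0.01 to 0.36 for Adar, -0.04 to 0.34 for Dhx58 and -0.09 to 0.25 for Zbp1 (limma adjusted p between 0.141 and 0.574). Mavs had 7.68, 7.68, 7.65 and 7.61 in light-exposed RPE and 7.85, 7.75, 8.23 and 7.95 in control RPE. As in the NSR, every light-exposed value lay below every control value, which held for 10.9% of all genes, and the log2 difference of -0.29 was not called (limma adjusted p = 0.0692). It was called without control RPE array 2 (-0.35, limma adjusted p = 0.0331) and in a fit of all 16 arrays (adjusted p = 0.0304). The microglia and macrophage list had 2 of its 18 genes higher and 1 lower in the RPE, and its median lay between 7.01 and 7.56 in light-exposed RPE, against 6.91 to 7.43 in control RPE. In the neutrophil and monocyte list 4 of 13 genes rose, S100a8, S100a9, Ccr2 and Plac8. Without the 3 RPE arrays that carried markers of neighbouring tissue, the log2 differences of the 6 uncalled genes were 0.25 for Ddx58, 0.27 for Dhx58, 0.17 for Tlr3, -0.38 for Mavs, 0.12 for Zbp1 and 0.11 for Adar, and none was called (limma adjusted p between 0.112 and 0.633). Of 15 RPE markers 9 fell and 0 rose. The part of these cells in the results was not tested.

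The response to light was smaller in the RPE than in the NSR for 5 of the 10 genes, by a test of the difference itself in a fit of all 16 arrays, against 8.05% of all genes whose difference was called in that direction, 5.16% in the other, where no member was called, and 13.2% together. The log2 response in the RPE minus that in the NSR was -2.72 for Ddx58 (SE 0.16, limma adjusted p = 1.49e-08), -2.34 for Eif2ak2 (SE 0.14, adjusted p = 1.49e-08) and -1.70 for Ifih1 (SE 0.11, adjusted p = 2.68e-08). These RNA sensors differed by much more than Adar at -0.70 (SE 0.10, limma adjusted p = 0.00012) and Tlr3 at -0.62 (SE 0.15, adjusted p = 0.00968). Myd88 was the gene whose rises were most alike among those called in both tissues, with a difference of -0.31 that was not called (95% interval -0.69 to 0.06, limma adjusted p = 0.298). For Mavs the difference was -0.04 (95% interval -0.31 to 0.23). Without the 3 RPE arrays with markers of neighbouring tissue, the same 5 differences were called, at -2.70 for Ddx58, -2.25 for Eif2ak2, -1.70 for Ifih1, -0.77 for Adar and -0.66 for Tlr3 (limma adjusted p between 1.6e-06 and 0.0332). The other 5 were not called, with Myd88 at -0.27, Dhx58 at -0.02, Mavs at -0.13, Tlr2 at -0.68 and Zbp1 at -0.31 (limma adjusted p between 0.142 and 0.955).

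The difference of responses was close to the threshold for Tlr2 and Zbp1. For Tlr2 it was -0.68 (95% interval -1.16 to -0.20, limma adjusted p = 0.0586), and it was called after quantile normalization (-0.76, adjusted p = 0.0343), with the dimmest 25% of genes left out (adjusted p = 0.0478), with the mouse as a fixed block (adjusted p = 0.0271) but not as a random block, and without control NSR array 3 (-0.84, adjusted p = 0.00826) or light-exposed NSR array 4 (-0.81, adjusted p = 0.0201). For Zbp1 it was -0.35 (95% interval -0.59 to -0.10, limma adjusted p = 0.0569), and it was called after centring (-0.36, adjusted p = 0.0418), after quantile normalization (-0.38, adjusted p = 0.0348) and with the dimmest 25% of genes left out (adjusted p = 0.0437). It was also called without control NSR array 1 (adjusted p = 0.0439), light-exposed NSR array 4 (adjusted p = 0.0383) or light-exposed RPE array 4 (adjusted p = 0.0196). The plot of changes by tissue sets the responses of the 10 genes beside each other.

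**Figure D2:**
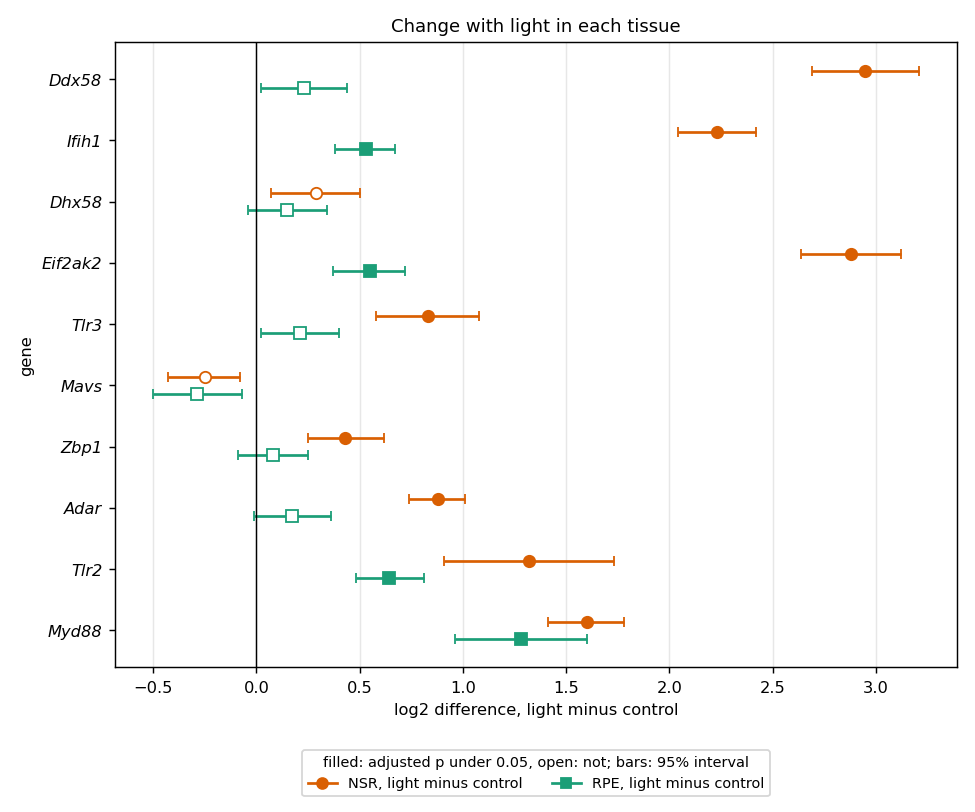
Log2 difference, light minus control (horizontal axis), of each gene in the NSR (circles) and in the RPE (squares), with 95% intervals from limma; filled symbols passed an adjusted p under 0.05. The NSR values of Ddx58, Eif2ak2 and Ifih1 lie above 2 and their RPE values below 0.6, whereas Myd88 stands above 1 in both tissues and Mavs lies below 0 in both without passing.

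The tissues of control mice already differed in 8 of the 10 genes. The signal of 7 of them was higher in control RPE than in control NSR, against 30.8% of all genes, and that of 1, Adar, was lower, against 24.2%, in a comparison that called 55.0% of all genes. Eif2ak2 was 7.15-fold higher in control RPE, Tlr3 5.44-fold, Ddx58 4.97-fold, Tlr2 3.46-fold and Ifih1 3.24-fold (n = 4 per group, limma adjusted p between 7.03e-14 and 2.16e-08). Such differences of at least 2-fold were found for 9.17% of all genes. Eif2ak2 averaged 8.62 ± 0.07 in control RPE and 5.78 ± 0.22 in control NSR, Tlr3 8.46 ± 0.15 in control RPE and 6.01 ± 0.05 in control NSR, and Ddx58 8.91 ± 0.13 in control RPE, against 6.60 ± 0.27 in control NSR (SD, n = 4). For all 7 higher genes every control RPE array lay above every control NSR array, as for 29.5% of all genes, while 22.8% had every RPE array below. The adaptors differed less: Mavs was 1.57-fold higher in control RPE (log2 difference 0.65, SE 0.09, limma adjusted p = 6.35e-06) and Myd88 1.61-fold (log2 difference 0.69, SE 0.12, adjusted p = 0.000113).

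Adar was 1.16-fold lower in control RPE, at 7.46 ± 0.12 against 7.68 ± 0.08 in control NSR (SD, n = 4, log2 difference -0.22, limma adjusted p = 0.0148), and the arrays overlapped. This call was lost without control RPE array 3 (-0.17, limma adjusted p = 0.0609), after centring each array on its median (-0.08, adjusted p = 0.345) and after quantile normalization (-0.16, adjusted p = 0.059). Without the 3 RPE arrays with markers of neighbouring tissue, the same 7 genes were called higher, with log2 differences of 2.81 for Eif2ak2, 2.44 for Tlr3, 2.32 for Ddx58, 1.75 for Tlr2, 1.69 for Ifih1, 0.72 for Mavs and 0.63 for Myd88, and Adar was called lower at -0.21 (limma adjusted p between 9.78e-12 and 0.0325). Dhx58 and Zbp1 did not pass, with log2 differences of 0.09 and 0.11, or 0.08 and 0.14 without those arrays. Both were called higher after centring (adjusted p = 0.0335 for Dhx58 and adjusted p = 0.0108 for Zbp1) and after quantile normalization. Scaling matters in this comparison because the median log2 difference of all genes was 0.04 as deposited, 0.19 after centring and 0.15 after quantile normalization. The share of called genes that were higher in control RPE was 56.0%, 72.2% and 66.4% in turn. Of the 18 genes of microglia and macrophages, 14 were higher in control RPE and none lower, and the list median was 6.91 to 7.43 there, against 5.97 to 6.00 in control NSR. Of 12 fibroblast and pericyte markers 10 were higher and 1 lower, and the part of these cells in the differences of the 10 genes was not tested.

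After light, the tissues did not differ by the test in Ifih1 and differed the other way in Ddx58. Ifih1 averaged 8.51 ± 0.09 in light-exposed RPE and 8.52 ± 0.13 in light-exposed NSR (SD, n = 4), a log2 difference of -0.01 whose 95% interval ran from -0.17 to 0.16 (limma adjusted p = 0.956). Ddx58 was 1.32-fold lower in light-exposed RPE, at 9.14 ± 0.15 against 9.54 ± 0.10 in light-exposed NSR (log2 difference -0.40, SE 0.12, limma adjusted p = 0.00607), with no overlap of the arrays. Eif2ak2 was still higher in the RPE, by 1.42-fold (log2 difference 0.50, limma adjusted p = 0.000329), where control mice had shown 7.15-fold. Its light-exposed NSR arrays, at 8.51 to 8.79, overlapped the range of control RPE, 8.53 to 8.71.

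Tlr3, Tlr2 and Mavs kept a higher level in the RPE of light-exposed mice, by 3.53-fold, 2.16-fold and 1.53-fold (limma adjusted p = 7.83e-11, adjusted p = 1.01e-05 and adjusted p = 1.32e-05). Adar was 1.90-fold lower in light-exposed RPE than in light-exposed NSR (log2 difference -0.92, limma adjusted p = 3.29e-09). Myd88 was 1.30-fold higher in light-exposed RPE (log2 difference 0.38, limma adjusted p = 0.0153), a call that was lost without light-exposed RPE array 2 (0.28, adjusted p = 0.0631) or array 3 (0.29, adjusted p = 0.0623). Zbp1 was 1.18-fold lower (log2 difference -0.24, limma adjusted p = 0.0186). Its call was lost with the mouse as a fixed block (adjusted p = 0.0533), though not as a random block, and after centring (-0.11, adjusted p = 0.216), and it was lost without light-exposed NSR array 3 (-0.20, adjusted p = 0.0623) or light-exposed RPE array 1 (-0.21, adjusted p = 0.0519). Without light-exposed RPE arrays 1 and 2 and control RPE array 2 together it was lost as well (-0.17, adjusted p = 0.178). The other 7 calls held without those 3 arrays, with log2 differences of 1.77 for Tlr3, 1.07 for Tlr2, 0.59 for Mavs, 0.56 for Eif2ak2, 0.36 for Myd88, -0.38 for Ddx58 and -0.97 for Adar (limma adjusted p between 3.76e-08 and 0.0426), and Ifih1 at -0.01 and Dhx58 at 0.06 were not called. Thus 5 of the 10 genes were higher and 3 lower in light-exposed RPE, against 34.4% and 23.6% of all genes, or 58.0% together. The arrays did not overlap for 4 of the higher genes, Eif2ak2, Tlr3, Mavs and Tlr2, and for 2 of the lower ones, Ddx58 and Adar, which held for 30.3% and 21.6% of all genes. Tlr3 and Tlr2 differed at least 2-fold, as did 7.89% of all genes in that direction. After centring, the median log2 difference of all genes here was 0.20, against 0.08 as deposited, and the share of called genes that were higher in the RPE was 73.0%, against 59.3%.

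**Figure D3:**
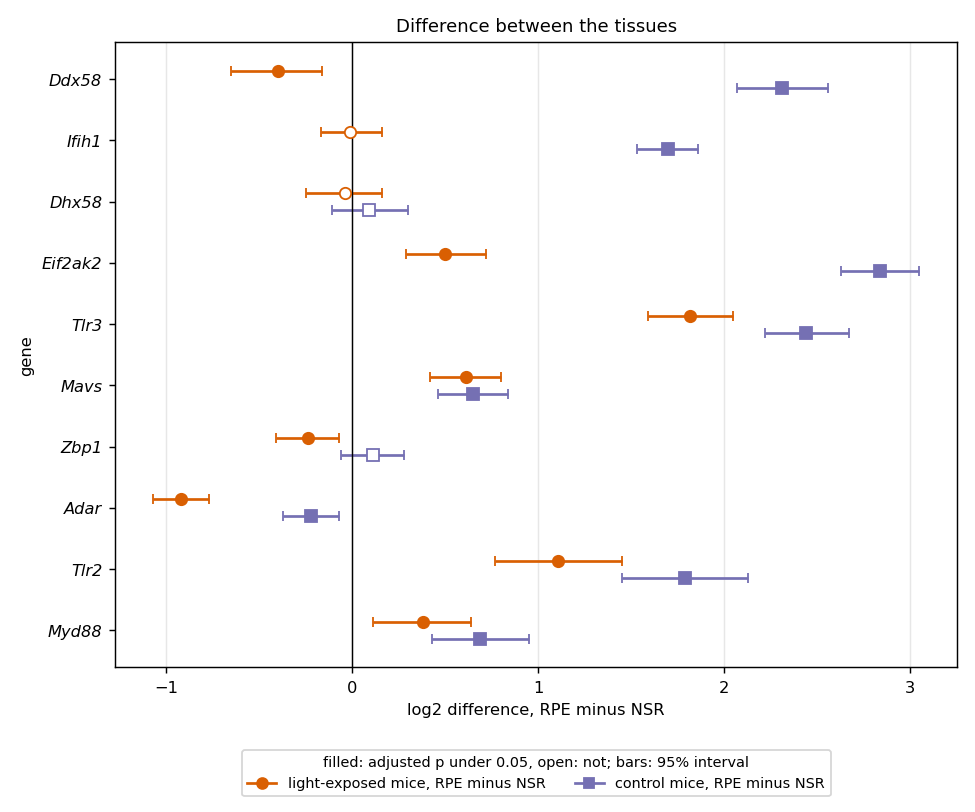
Log2 difference, RPE minus NSR (horizontal axis), of each gene in light-exposed mice (circles) and in control mice (squares), with 95% intervals from limma; filled symbols passed an adjusted p under 0.05. In control mice Ddx58, Ifih1, Eif2ak2, Tlr3 and Tlr2 lie above 1.5, and in light-exposed mice Ddx58 and Ifih1 lie at or below 0 while Tlr3 and Tlr2 stay above 1.

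Ordered by level, the 4 groups ran alike for Ddx58, Ifih1, Dhx58 and Zbp1, with control NSR lowest, then control RPE, light-exposed RPE and light-exposed NSR. Neighbours in that order did not differ by the test between light-exposed RPE and control RPE for Ddx58, nor between light-exposed RPE and light-exposed NSR for Ifih1, for Dhx58 no neighbouring pair passed, and for Zbp1 only light-exposed RPE and light-exposed NSR differed. For Tlr3 and Tlr2 both NSR groups lay below both RPE groups. For Adar both RPE groups lay below both NSR groups by their means. Its light-exposed RPE arrays, at 7.51 to 7.79, overlapped those of control NSR, at 7.57 to 7.75, and this pair was not tested. For Mavs the order was light-exposed NSR, control NSR, light-exposed RPE and control RPE. For Eif2ak2 and Myd88, light-exposed RPE was highest, followed by light-exposed NSR, control RPE and control NSR. The Eif2ak2 means of light-exposed NSR, 8.66, and control RPE, 8.62, were close, and this pair was not tested.

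Other genes of nucleic acid sensing were followed through 8 lists with 103 measured genes, of which 32 rose and 4 fell in the NSR and 22 rose and 2 fell in the RPE. Over all genes, 8.87% were called higher and 6.24% lower in the NSR and 9.08% higher and 8.53% lower in the RPE, and the counts of each list are to be read against these shares. The genes that fell were Sarm1, Tnfaip3, Ikbkg and Rnf5 in the NSR and Tab2 and Eif2ak1 in the RPE, most of them named after their values were seen. Of 12 genes of interferon and NF-kB transcription factors, 9 rose in the NSR and 8 in the RPE and none fell, with median log2 changes of 0.86 in the NSR and 0.38 in the RPE, against -0.02 and -0.01 over all genes. Stat2 and Irf7, factors of the interferon response, rose 5.26-fold and 5.22-fold in the NSR (log2 2.40, SE 0.08, limma adjusted p = 3.67e-09, and log2 2.38, SE 0.10, adjusted p = 2.38e-08). In the RPE the largest changes of the list were those of Nfkbia, the inhibitor induced by NF-kB, which rose 2.18-fold, and Irf1, which rose 2.05-fold (limma adjusted p = 0.000717 and adjusted p = 0.00125). Both rose in the NSR too, by 1.18 for Nfkbia and 1.21 for Irf1 on the log2 scale, beside 1.13 and 1.03 in the RPE, and the differences of response were not called (limma adjusted p = 0.91 and adjusted p = 0.587). The response of Stat2 differed between the tissues by -2.17 and that of Irf7 by -1.89 on the log2 scale (RPE minus NSR, limma adjusted p = 8.84e-08 and adjusted p = 5.21e-08).

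The genes of interferons themselves were not called in either tissue. The list held 6 of them, Ifnb1, Ifna2, Ifna4, Ifnk, Ifng and Ifnl2, whose log2 differences lay between -0.15 and 0.11 in the NSR and between -0.26 and 0.15 in the RPE. They are named after their values were seen. Ifnb1, the interferon gene most directly downstream of these sensors, averaged 4.30 ± 0.11 in light-exposed NSR and 4.45 ± 0.05 in control NSR (SD, n = 4). In the RPE it averaged 4.46 ± 0.19 with light and 4.35 ± 0.10 without (SD, n = 4). These levels lie in the dimmest 25% of genes, where a change may not be detectable. Of the 13 genes of the list of interferons and their receptors, 3 rose in the NSR and 3 in the RPE, led by the receptor gene Ifnar2 in the NSR (2.42-fold, limma adjusted p = 3.25e-07) and Ifngr2 in the RPE (1.61-fold, adjusted p = 0.00119). The next largest called change of the list in the NSR was that of Jak2 (1.23-fold, limma adjusted p = 0.00561). In the RPE it was that of Jak1 (1.33-fold, limma adjusted p = 0.00328), and both encode kinases used by interferon receptors. Jak1 and Tyk2 were not called in the NSR, with log2 differences of -0.01 and -0.06. Jak2 and Tyk2 were not called in the RPE, with 0.05 and -0.02, values named after they were seen.

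A list of 15 genes held other effectors of double-stranded RNA together with kinases related to PKR. Of these 15 genes, 7 rose in the NSR and none fell, with a median log2 change of 0.17. In the RPE 2 rose and 1 fell, and the median was 0.03. Eif2ak1 and Eif2ak3, kinases that do not sense double-stranded RNA, were among the genes that rose in the NSR. Among the oligoadenylate synthetase genes, Oas1b and Oasl2 rose in the NSR, and Oas1a, Oas2, Oas3 and Oasl1 were not called. Ifit3, which belongs to a family of RNA-binding proteins, rose 5.82-fold and Oasl2, of the oligoadenylate synthetase family, 4.90-fold in the NSR (limma adjusted p = 2.84e-05 and adjusted p = 1.86e-07). Eif2ak1, a related kinase that senses low haem, moved in opposite directions, with log2 changes of 0.25 in the NSR and -0.41 in the RPE (limma adjusted p = 0.0247 and adjusted p = 0.00348), and the difference of -0.66 between them was called (adjusted p = 0.00013). Its adjusted p in the NSR was the highest of the 7 genes that rose there. Their count was 6 without control NSR array 1 or 4 or light-exposed NSR array 2 or 3. Ifit3 and Oasl2 belong to families with near-identical members, whose probes may share signal. In the RPE the largest called changes were those of Ifit1, 2.21-fold higher, and Eif2ak3, the PERK kinase of the endoplasmic reticulum, 1.94-fold higher (limma adjusted p = 0.00276 and adjusted p = 0.00015).

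Of 19 genes of the signalling of RIG-I-like receptors and its regulators, 4 rose and 3 fell in the NSR, and 2 rose and none fell in the RPE. In the NSR 1 fell, in place of 3, without control NSR array 2, 3 or 4, and in the RPE 1 rose, in place of 2, without control RPE array 2 or 3 or light-exposed RPE array 3. The list had median log2 changes of -0.01 in the NSR and 0.06 in the RPE. Usp18, a protease that removes ISG15, rose 4.12-fold and Trim25, a ubiquitin ligase that acts on RIG-I, 2.89-fold in the NSR (limma adjusted p = 9.66e-09 and adjusted p = 1.11e-06). Tnfaip3, which encodes the A20 inhibitor of NF-kB, changed in opposite directions, with log2 changes of -0.96 in the NSR (limma adjusted p = 3.03e-05) and 0.95 in the RPE (adjusted p = 0.000271). The difference of 1.91 between these responses was called (limma adjusted p = 2.43e-07). In the RPE, Tbk1, a kinase downstream of MAVS, rose 1.24-fold (limma adjusted p = 0.0294).

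Of 13 DNA sensors and proteins that handle DNA, 3 were called higher in the NSR and 2 in the RPE and none lower, where 8.87% of all genes were called higher in the NSR and 9.08% in the RPE. Without control RPE array 3, 1 was called lower in the RPE. Ifi203, of the interferon-inducible p200 family, rose 4.10-fold and Samhd1, which degrades nucleotides, 2.64-fold in the NSR (limma adjusted p = 6.02e-05 and adjusted p = 5.38e-08). The helicase genes Dhx9 and Ddx41 rose 1.35-fold and 1.30-fold in the RPE (limma adjusted p = 0.00128 and adjusted p = 0.00711). Cgas and Sting1, the central DNA sensor and its adaptor, had log2 differences of 0.10 and 0.14 in the NSR and 0.07 and 0.25 in the RPE, none of them called. Both were named after their values were seen.

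Of 14 other Toll-like receptors and co-receptors, 2 rose in the NSR and 3 in the RPE, with median log2 changes of 0.07 in the NSR and 0.06 in the RPE. Of all genes 8.87% were called higher in the NSR and 9.08% in the RPE. The NSR count of risen receptors was 0 without control NSR array 2 or 4 and 1 without control NSR array 1 or light-exposed NSR array 1, 2 or 4. In the NSR 0 fell, against 2 without light-exposed NSR array 3 and 1 without light-exposed NSR array 4. Cd14, a co-receptor for lipopolysaccharide and lipopeptides, rose 1.43-fold in the NSR (limma adjusted p = 0.0169) and 2.15-fold in the RPE (adjusted p = 0.00124). Tlr4 rose 1.25-fold in the NSR (limma adjusted p = 0.0336) and Tlr13 1.54-fold in the RPE (adjusted p = 0.0158). Of 12 adaptors and kinases of these receptors, 2 rose and 1 fell in either tissue, where 6.24% of all genes were called lower in the NSR and 8.53% in the RPE. In the RPE none fell without control RPE array 1, 2 or 3 or light-exposed RPE array 1 or 2. The RPE count of risen genes was 4 without light-exposed RPE array 1 and 1 without control RPE array 1 or light-exposed RPE array 2, 3 or 4. Tirap, the adaptor that brings MyD88 to TLR2 and TLR4, rose 2.17-fold and Irak3, an inhibitory kinase of the family, 1.60-fold in the NSR (limma adjusted p = 0.000187 and adjusted p = 4.55e-05). In the RPE Peli1, a ubiquitin ligase, rose 1.35-fold and Ticam1, the adaptor of TLR3, 1.32-fold (limma adjusted p = 0.0205 and adjusted p = 0.0121). In a list of 5 cell death genes around ZBP1 and MyD88, 2 rose in the NSR, Casp8 by 2.59-fold (limma adjusted p = 3.57e-05) and Mlkl by 1.36-fold (adjusted p = 0.0452). The count was 1 without any single control NSR array and without light-exposed NSR array 2 or 3. Of these genes none was called in the RPE, where Casp8 had the largest log2 difference, 0.29 (adjusted p = 0.108). Ripk3, the RIP kinase gene of the list, was called in neither tissue, with log2 differences of -0.04 in the NSR and 0.04 in the RPE (limma adjusted p = 0.844 and adjusted p = 0.838). It was named after its values were seen.

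**Figure D4:**
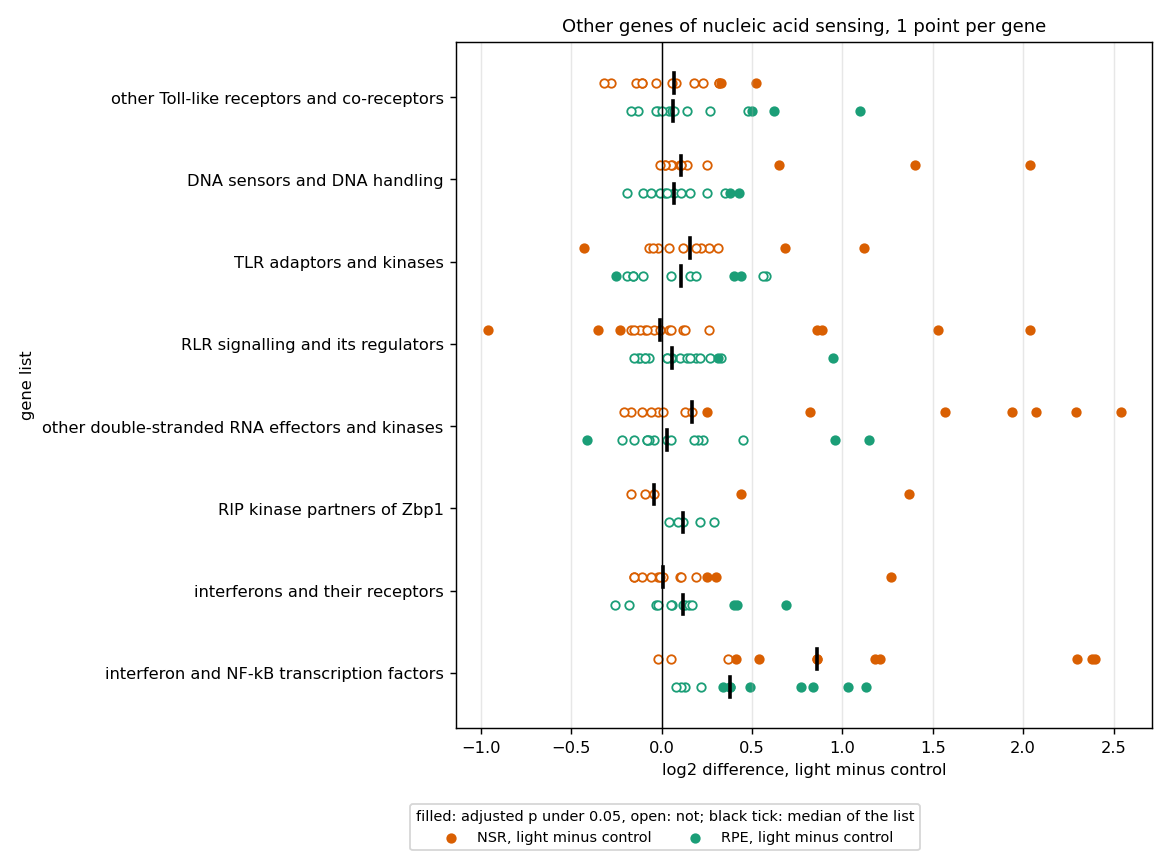
Log2 difference, light minus control (horizontal axis), of 103 other genes of nucleic acid sensing in 8 lists, 1 point per gene, with the NSR above the RPE in each list; filled points passed an adjusted p under 0.05 and black ticks mark list medians. The transcription factors have the highest medians, 0.86 in the NSR and 0.38 in the RPE, and most genes of the other lists lie near 0.

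Genes with a similar pattern were sought over the 16 arrays by Pearson correlation of the log2 value after subtracting the mean of the control arrays of the same tissue. The correlations are a description: the points share their arrays and fall into light-exposed and control arrays. For Eif2ak2 the closest genes were Irf7 (r = 0.994), Usp18 (0.992) and Ifnar2 (0.990). Ifih1 was closest to Vwa5a, Lif and Trim21 (r = 0.992 each), and Ddx58 to Pdpn (0.992), Prss56 (0.991) and Ftl1 (0.990). Adar was closest to Prtg (r = 0.981), Stat2 and Parp9 (0.979 each). Myd88, which rose in both tissues, was closest to Stat3 (r = 0.983), Naa50 (0.979) and Irf1 (0.976). The log2 changes of Stat3 were 1.96 in the NSR and 1.46 in the RPE, beside 1.60 and 1.28 for Myd88. Tlr2 was closest to S100a16 (r = 0.965), Tagln2 (0.960) and Nampt (0.958), and Tlr3 to Bhlhe40 (0.956), C3ar1 (0.953) and Septin9 (0.952). The highest correlations were lower for Zbp1 (0.937 with Septin9), Dhx58 (0.869 with Cgas) and Mavs (0.864 with Brf1), the genes with the smallest changes in the NSR.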

How the data were processed

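Each tissue of each mouse had 1 Affymetrix Mouse Gene 1.0 ST array, 16 in all. The authors deposited log2 values per transcript cluster, for which the submitters' processing notes name RMA and Partek 6.6. The log2 scale was inferred from the range, 2.20 to 13.84. Build, annotation version and probe filters are not given in the sources used, and no detection measure was used, so that height above background is unknown. Symbols came from the platform annotation. Each gene took its brightest single-symbol cluster, which left 19938 genes from 35556 clusters. Among 120 pairs of arrays 0 were identical.

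Light was tested within each tissue, and the tissues and the difference of responses in a fit of all 16 arrays, with lmFit and eBayes in limma 3.58.1 (R 4.3.3). Calls took an adjusted p under 0.05, with the Benjamini-Hochberg adjustment made over every gene. Tables and plots were made with Python 3.11.15, pandas 2.3.3 and, for the plots, matplotlib 3.10.9. The fits were tested on simulated data. Members, lists and motifs were chosen with earlier results of these data known. Named were all members, the 2 called genes with the largest change per list and tissue (the largest change where none was called), and the 3 genes most like each member. Members and genes with predicted, Rik or clone names were left out of that last search. NSR and RPE of 1 mouse share an identifier and are paired by animal, and after subtracting group means their arrays correlated at -0.011 to 0.053 in the 8 mice. Alternatives were other scalings, filters, clusters, priors, weights, blocks and left-out arrays. Precision is limited by having 4 arrays per group.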

Additional observations from a re-analysis of the deposited data

Results flagged for a closer look

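A test of the difference itself found unequal responses to light in the tissues for 5 genes. The log2 response to light in the RPE minus that in the NSR was -2.72 for Ddx58, -1.70 for Ifih1, -2.34 for Eif2ak2, -0.62 for Tlr3 and -0.70 for Adar. Single arrays far from the other 3 of their group were found in 4 of 40 groups of arrays, where chance gives about 1 in 20 (5%), or 2. Ddx58 was low on control NSR array 1, at 6.19. Tlr3 was high on control NSR array 3, at 6.08, in a group whose range was only 0.10. Zbp1 was high on light-exposed RPE array 4, at 6.12, and Tlr2 was low on light-exposed NSR array 4, at 7.16.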

How the results depend on the processing

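Over the alternatives run, 0 of 1225 values of the 10 genes reversed a call and 1174 kept their side of the threshold. Some uncalled values near 0 changed sign, as for Dhx58 between light-exposed tissues, which ran from -0.12 to 0.08. Leaving aside the alternative that also asks for a 2-fold change, 30 of 33 called differences were called in every alternative, the exceptions being Adar between control tissues and Zbp1 and Myd88 between light-exposed tissues. With the 2-fold minimum, members called higher numbered 5 in the NSR (8 without it), 1 in the RPE (4) and 2 between light-exposed tissues (5), and members called lower numbered 0 between control tissues (1), 0 between light-exposed tissues (3) and 3 for the difference of responses (5). Members called lower by light in the NSR were 1 after quantile normalization or without the dimmest 25% of genes (0 as reported), and in the RPE 1 in the fit of all 16 arrays (0). Leaving out each array in turn gave 0 to 1 lower in the RPE, and 0 to 1 lower between control tissues, where centring and quantile normalization gave 0. The dim filter removed Dhx58, which has no value under it. For light within a tissue, replicate numbers name different mice: same-numbered arrays correlated between -0.017 and 0.066 in the NSR and -0.01 and 0.04 in the RPE. With the number as a replicate block, Dhx58 in the NSR was called (adjusted p = 0.0311), which made 9 members higher. For the mouse as a fixed replicate block, the calls of Tlr2 and Zbp1 that changed stand in the report, and no other call of a member changed. With the mouse as a random block no call of a member changed. Counts of the pathway lists were small, and 12 of 32 moved by over 1.5 times in some alternative. Genes called higher ranged from 0 to 2 for other Toll-like receptors in the NSR (2 as reported) and 1 to 3 in the RPE (3), from 2 to 5 for their adaptors in the NSR (2) and 1 to 4 in the RPE (2), from 1 to 3 for regulators of RIG-I-like receptors in the RPE (2), from 1 to 2 for cell death genes around ZBP1 and MyD88 in the NSR (2) and from 1 to 4 for interferons and receptors in the RPE (3). Genes called lower ranged from 1 to 3 for regulators of RIG-I-like receptors in the NSR (3), from 0 to 2 for other Toll-like receptors in the NSR (0), and from 0 to 1 in the RPE for their adaptors (1), for DNA sensors (0) and for interferons and receptors (0). The list of transcription factors held 9 to 10 higher in the NSR and 6 to 8 in the RPE.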
